A study of Homo sapiens with 32 samples.

Results

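The comparison set the response of Huh7 cells to SAHA against their response to an siRNA for HDAC2. Huh7 is a cell line from a human hepatocellular carcinoma. SAHA (vorinostat) is a small molecule that inhibits histone deacetylases. The members were 16 of the 32 arrays of the study, 4 in each of 4 groups: Huh7 with DMSO, the solvent control; Huh7 with SAHA; Huh7 with scrambled siRNA, the transfection control; and Huh7 with HDAC2 siRNA. For each gene the SAHA effect was the mean log2 signal with SAHA minus that with DMSO, and the siRNA effect was the mean with HDAC2 siRNA minus that with scrambled siRNA. The interaction was the SAHA effect minus the siRNA effect, so a positive value lies higher with SAHA. The remaining 16 arrays held the same 4 groups of a second liver tumour line, HepG2. The sources used here give no dose, no time of treatment and no siRNA sequence. They also do not say if replicate arrays are separate cultures, so p-values measure the spread between arrays, which may be technical, and 4 arrays limit the precision.

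Histone deacetylases remove acetyl groups from lysines of histones and other proteins, and acetylated histones go with open, transcribed chromatin. HDAC1 and HDAC2 are close relatives that work inside the Sin3, NuRD and CoREST corepressor complexes. A hydroxamate such as SAHA blocks the zinc-dependent active site of many family members at once and leaves the proteins in place, whereas an siRNA lowers the transcript of 1 member and leaves the others. Induction of the cyclin-dependent kinase inhibitor gene CDKN1A is a textbook response to such inhibitors.

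On the Huh7 arrays 50.3% to 54.9% of probes gave a signal above background (detection p under 0.05), arrays of one group correlated at 0.987 to 0.996, and 12973 genes were tested. Of 16 hepatocyte markers, 14 to 16 were detected on all 4 arrays of each group. The log2 of the markers' summed signal was 17.31 to 17.37 with DMSO, 16.27 to 16.30 with SAHA, 16.81 to 16.95 with scrambled siRNA and 16.86 to 16.95 with HDAC2 siRNA. Of 8 leukocyte markers tested, 4, 2, 4 and 3 were detected on all 4 arrays with DMSO, SAHA, scrambled siRNA and HDAC2 siRNA. CD79A was among those at background in every group. Of 9 fibroblast and endothelial markers, 5, 5, 4 and 4 were detected on all 4 arrays of these groups, and VWF and CDH5 were at background. The log2 of the summed signal of the leukocyte markers was 12.00 to 12.16 with DMSO, 10.19 to 10.52 with SAHA, 9.61 to 10.01 with scrambled siRNA and 9.28 to 9.46 with HDAC2 siRNA, and that of the fibroblast and endothelial markers stayed between 9.30 and 10.14. Most of the leukocyte sum with DMSO came from CD14. It read 11.78 to 11.97 with DMSO, 9.23 to 9.86 with SAHA, 7.08 to 7.67 with scrambled siRNA and 5.18 to 6.10 with HDAC2 siRNA. Between the controls, CD3D was higher with scrambled siRNA (7.53 to 8.18 against 6.88 to 7.41) and LYZ lower (5.94 to 6.18 against 6.59 to 7.33). The part of all these markers in the results below was not tested.

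HDAC2, read by 1 probe, had log2 signals of 11.42, 11.69, 11.44 and 11.47 with DMSO, 12.05, 11.91, 11.83 and 12.03 with SAHA, 12.12, 12.08, 12.05 and 12.03 with scrambled siRNA, and 8.85, 8.65, 8.64 and 8.76 with HDAC2 siRNA. The siRNA arrays lay far below all others, and neither treated group overlapped its control. HDAC2 fell 10.1-fold with its siRNA (siRNA effect -3.34, limma adjusted p = 4.24e-21) and had a SAHA effect of 0.45 (adjusted p = 0.00035), which gave an interaction of 3.79 (SE 0.15, adjusted p = 2.54e-19). The SAHA value did not pass under median scaling, which brings the arrays to a common median in place of a common distribution (0.13, adjusted p = 0.461).

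Of the other class I genes, HDAC1, the closest relative of HDAC2, moved with the same signs and had a SAHA effect of 0.39 and an siRNA effect of -0.39 (interaction 0.78, SE 0.12, adjusted p = 1.77e-06); its SAHA effect was 0.14 and did not pass under median scaling (adjusted p = 0.283). HDAC3, the catalytic subunit of the NCoR complex, rose in both comparisons, by 1.40 with SAHA and 0.58 with the siRNA, and the SAHA effect was the larger by 0.82 (SE 0.15, adjusted p = 1.82e-05). HDAC8 passed in neither (-0.26 with SAHA and -0.23 with the siRNA). Of 7 class II and IV genes, HDAC4 fell in both comparisons (-0.47 with SAHA and -0.72 with the siRNA) with an interaction of 0.25 that did not pass (95% interval -0.15 to 0.65). HDAC6, which deacetylates tubulin, rose with the siRNA by 0.69 and had a SAHA effect of 0.24 that did not pass. HDAC7, near background and detected on no SAHA array, had effects of -0.57 and 0.15 (interaction -0.72, adjusted p = 0.0261). Its SAHA effect did not pass on the authors' normalized values (adjusted p = 0.112), and raising the SAHA arrays to the lowest detected signal left an interaction of -0.20. HDAC5, HDAC9, HDAC10 and HDAC11 passed in neither comparison. Of 23 tested subunits of the Sin3, NuRD and CoREST complexes, the interaction was higher with SAHA in 7 and lower in 8, beside 29% and 25.7% of all genes tested. Under median scaling it was higher in 3 and lower in 10. Over all genes there, 2777 interactions were higher and 3902 lower. KDM1A, the CoREST demethylase, fell with SAHA and rose with the siRNA (-0.79 and 0.76). Its HDAC2 siRNA arrays (10.34 to 10.51) did not exceed its DMSO arrays (10.52 to 10.56).

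Over all genes, the interaction was called (limma, adjusted p under 0.05) in 7105 of 12973 genes, or 54.8%, with 3767 higher with SAHA (29%) and 3338 lower (25.7%), and 3655 of them differed by at least 1 on the log2 scale. SAHA alone changed 7868 genes (60.6%; 4094 up, 31.6%, and 3774 down, 29.1%) and the siRNA 5878 (45.3%; 2975 up, 22.9%, and 2903 down, 22.4%). Effects were also larger with SAHA, with a median size of 0.483 against 0.305 and an SD over genes of 0.984 against 0.614. Across the 12973 genes, which are not independent replicates, the effects correlated at r = 0.115 (Spearman rho 0.131); the comparisons share no array.

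A gene could move alike or oppositely in 4 ways. Both treatments raised 1214 genes (9.36% of those tested) and lowered 1285 (9.91%), SAHA raised and the siRNA lowered 795 (6.13%), and SAHA lowered and the siRNA raised 945 (7.28%). Of the 4239 genes called in both comparisons, 2499 (59%) thus moved alike and 1740 oppositely. The genes raised by both made up 29.7% of those raised by SAHA and 40.8% of those raised by the siRNA, and the genes lowered by both 34% and 44.3%. Of the 2499 genes moved alike, 1273 had no called difference between the effects, the SAHA effect was the larger in 915 and the siRNA effect in 311. SAHA changed 3629 genes that the siRNA comparison did not call, and 2826 of these had a called interaction, so for the other 803 the difference between the treatments did not pass. The siRNA changed 1639 genes that the SAHA comparison did not call, 1150 of them with a called interaction.

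**Figure D1:**
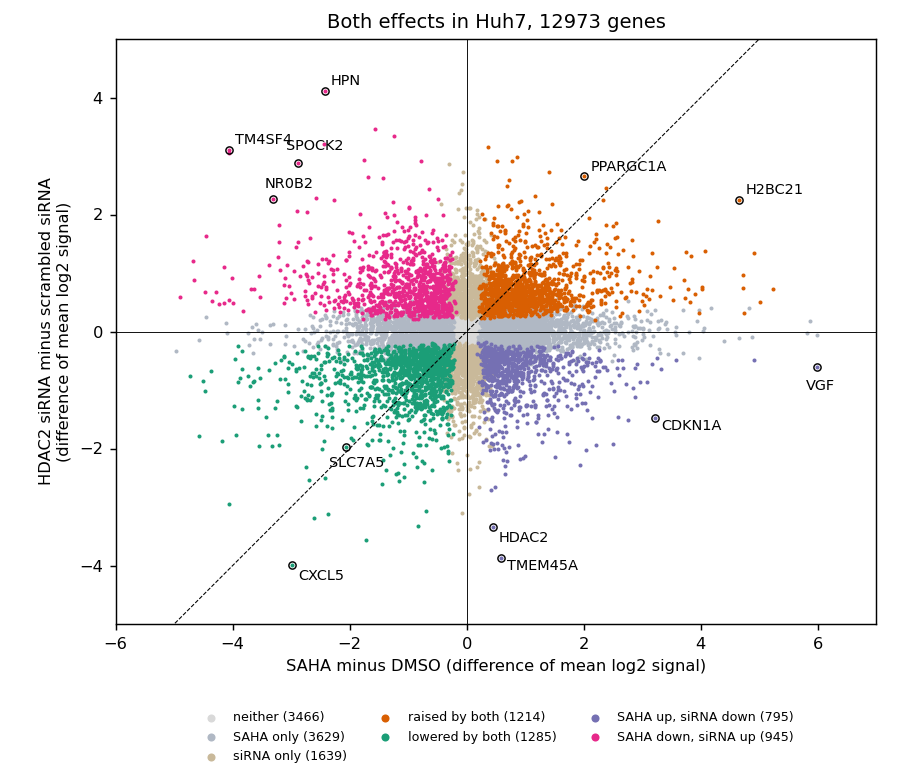
Each point is 1 of 12973 genes, with the SAHA effect on the horizontal axis and the HDAC2 siRNA effect on the vertical axis (differences of mean log2 signal between 4 and 4 Huh7 arrays); the dashed line marks equal effects and the colours the classes called at an adjusted p under 0.05, with their numbers. TM4SF4 and HPN lie in the upper left, CDKN1A in the lower right, and CXCL5 and SLC7A5 in the lower left near the line.

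The 2 controls were not alike. Scrambled siRNA and DMSO differed in 5704 genes (44%), 1077 of them by at least 1 on the log2 scale, and in 33 of the 40 genes named below by class, and control levels or differences are given for some of them. Solvent, transfection and any other difference between the SAHA and siRNA experiments cannot be told apart in it, and the interaction compares changes from different starting levels. An array reads the pooled RNA of many cells, so fewer responding cells and a smaller change per cell cannot be told apart either.

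The most negative interactions belonged to TM4SF4, HABP2 and HPN, genes known from liver epithelium that SAHA lowered and the siRNA raised. TM4SF4, a tetraspan membrane protein gene, had log2 signals of 9.59, 9.43, 9.31 and 9.36 with DMSO, 5.28, 5.37, 4.96 and 5.80 with SAHA, 8.32, 8.18, 8.24 and 8.47 with scrambled siRNA, and 11.46, 11.42, 11.42 and 11.34 with HDAC2 siRNA. All SAHA arrays lay below and all siRNA arrays above every control array. TM4SF4 fell 16.8-fold with SAHA (-4.07, adjusted p = 4.13e-21) and rose 8.62-fold with the siRNA (3.11, adjusted p = 1.83e-17), an interaction of -7.18 (SE 0.20, adjusted p = 9.18e-23). HABP2, a plasma serine protease gene made in the liver, followed with -4.07 and 3.04 (interaction -7.11, SE 0.22, adjusted p = 1.91e-21). HPN encodes hepsin, a membrane serine protease of hepatocytes, and read 8.96, 8.61, 8.51 and 8.61 with DMSO, 6.45, 6.03, 6.82 and 5.70 with SAHA, 5.97, 6.19, 6.26 and 6.44 with scrambled siRNA, and 10.36, 10.27, 10.42 and 10.29 with HDAC2 siRNA. Its SAHA arrays overlapped the scrambled siRNA arrays, and the control difference (scrambled minus DMSO) was -2.46, while the siRNA arrays were the highest of all. The interaction of HPN was -6.54 (SE 0.23, adjusted p = 2.97e-20), and its second probe gave -6.66.

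NR0B2 encodes SHP, a nuclear receptor without a DNA-binding domain that represses bile acid synthesis in hepatocytes. It read 9.06, 8.91, 8.87 and 8.98 with DMSO, 5.75, 5.58, 5.39 and 5.87 with SAHA, 7.52, 7.23, 7.48 and 7.51 with scrambled siRNA, and 9.69, 9.73, 9.71 and 9.64 with HDAC2 siRNA. The order was SAHA lowest, then scrambled siRNA, DMSO and HDAC2 siRNA, with no overlap between any of the groups. NR0B2 had effects of -3.31 and 2.26 (interaction -5.57, SE 0.15, adjusted p = 6.59e-23). SPOCK2, an extracellular matrix proteoglycan gene, moved by the same size in opposite directions (-2.88 and 2.88). DACT2, a WNT pathway antagonist gene, had effects of -2.43 and 3.21, with a control difference of -3.54. SCARA3, FAXDC2 and ATP9A were also among the 10 genes of this class with the largest smaller effect. In all 10 the treated arrays overlapped their controls in neither comparison, which the choice by effect size largely gave. MACROH2A2, a histone H2A variant gene, and ANXA13, an annexin gene of gut and liver epithelium, fell with SAHA (-4.67 and -4.46). They rose with the siRNA (1.20 and 1.64), to levels that overlapped DMSO. MACROH2A2 read 10.49 to 10.61 with HDAC2 siRNA against 10.46 to 10.73 with DMSO, and ANXA13 10.15 to 10.32 against 10.09 to 10.34. SCNN1A, an epithelial sodium channel gene with a SAHA effect of -4.90, was detected on no scrambled siRNA array, and raising that control to the lowest detected signal left an siRNA effect of 0.30.

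Of 18 hepatocyte transcription factor genes, SAHA lowered 13 and raised none, while the siRNA raised 9 and lowered 1. Of all genes tested, SAHA lowered 29.1% and raised 31.6%, and the siRNA raised 22.9% and lowered 22.4%. The median SAHA effect was -0.76 and the median siRNA effect 0.34, against 0.01 and -0.01 over all genes tested. Lowered by SAHA and raised by the siRNA were 7 of the 18, beside 7.28% of all genes tested. Among these 7 were NR0B2, FOXA1, FOXA2, NR5A2, PROX1 and NR2F1. FOXA1, a pioneer factor of endoderm, had effects of -2.21 and 1.07. Its HDAC2 siRNA arrays (10.29 to 10.34) lay above the scrambled arrays (9.09 to 9.33) but not above the DMSO arrays (10.35 to 10.68). CEBPA, which drives the mature hepatocyte program, fell with SAHA (-2.55) with an siRNA effect of -0.21 that did not pass. Among members named after their values were seen, HNF4A had a SAHA effect of -1.60 (siRNA effect 0.25, not passing), PROX1 had effects of -0.70 and 1.98, and ONECUT1 rose with the siRNA by 1.53 with a SAHA effect of -0.22 that did not pass. CEBPB was the one member lowered by both (-0.52 with SAHA and -1.37 with the siRNA).

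The products of mature hepatocytes moved in the same way under SAHA and divided under the siRNA. Of 33 hepatocyte genes SAHA lowered 28 and raised 1, beside 29.1% and 31.6% of all genes tested. The siRNA raised 13 and lowered 7, beside 22.9% and 22.4%. Under median scaling it raised 9 and lowered 7, so the excess of raised genes depended on the scaling. The interaction was lower with SAHA in 26 and higher in 1, beside 25.7% and 29%. The median interaction was -1.84, against 0.05 over all genes. SERPINA1, which encodes alpha-1 antitrypsin, had effects of -2.28 and 1.06 (interaction -3.34, SE 0.16, adjusted p = 2.1e-17). ITIH2 of the inter-alpha inhibitor had -2.74 and 0.95, and the asialoglycoprotein receptor subunit gene ASGR2 -4.15 and 0.48. The HDAC2 siRNA arrays of these genes stayed below their DMSO arrays. They read 10.94 to 11.18 against 11.78 to 12.02 for SERPINA1 and 8.84 to 9.03 against 9.46 to 9.67 for ITIH2. For ASGR2 they read 10.81 to 11.05 against 12.02 to 12.19. Chosen after their values were seen, APOB and APOC3, apolipoproteins of triglyceride-rich particles, were lowered by both (-3.87 with SAHA and -0.79 with the siRNA, and -3.91 with SAHA and -0.87 with the siRNA), whereas APOA1 and APOA2 of high-density lipoprotein were lowered by SAHA (-1.64 and -2.59) and raised by the siRNA (0.39 and 0.33). Of 17 oncofetal liver genes, the interaction was lower with SAHA in 12 and higher in 1, beside 25.7% and 29% of all genes tested. LIN28B, a blocker of let-7 microRNA maturation, was the member higher with SAHA (0.39 with SAHA and -2.02 with the siRNA). SOX9, a duct and progenitor factor, had effects of -0.76 and 1.39, and its HDAC2 siRNA arrays (9.97 to 10.19) stayed below DMSO (10.27 to 10.75). IGF2BP3, an RNA-binding protein gene, had -1.85 and 0.44, the second of which did not pass under median scaling (0.26, adjusted p = 0.12).

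**Figure D2:**
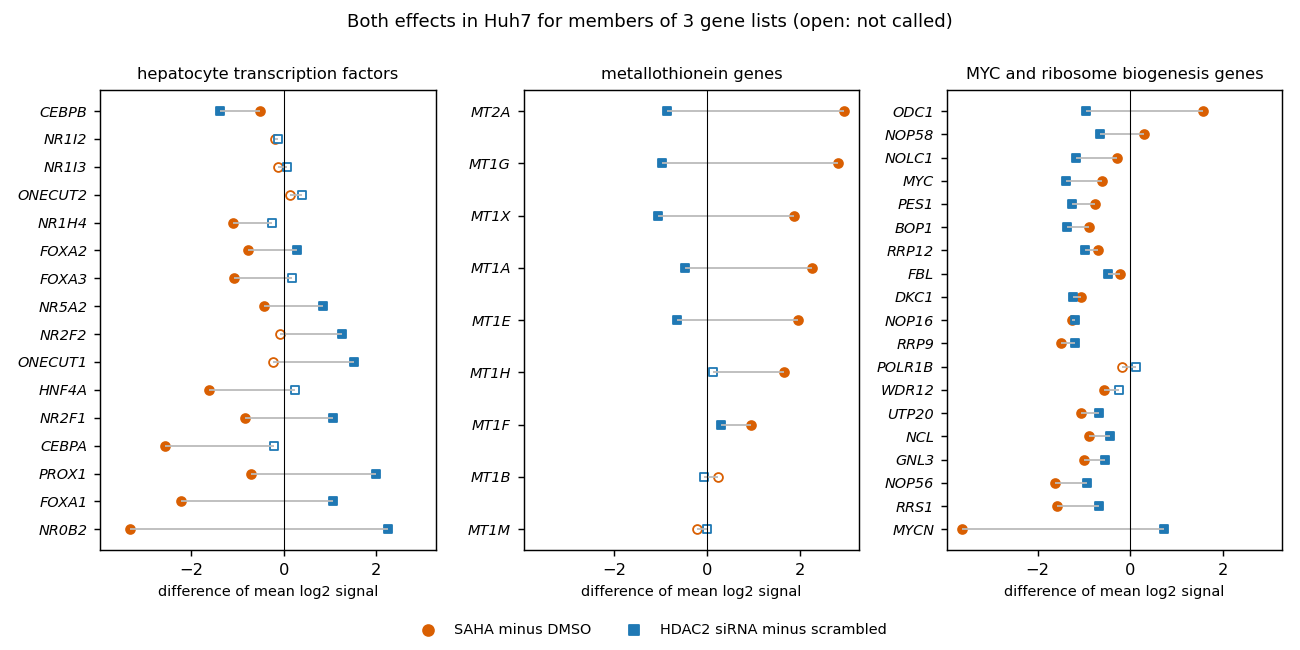
Both effects in Huh7 for members of 3 gene lists (16 of the 18 hepatocyte factors and every tested member of the other lists), with the SAHA effect as circles and the HDAC2 siRNA effect as squares (difference of mean log2 signal); filled symbols passed an adjusted p of 0.05 and a line joins the effects of 1 gene. Hepatocyte factors such as NR0B2 spread to both sides of 0 with SAHA on the left, metallothioneins such as MT2A with SAHA on the right, and most MYC and ribosome biogenesis genes have both symbols left of 0.

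The genes that SAHA raised and the siRNA lowered included CDKN1A, the gene of the cyclin-dependent kinase inhibitor p21. It read 8.82, 8.90, 8.72 and 8.61 with DMSO, 11.98, 12.02, 12.02 and 11.91 with SAHA, 9.80, 10.05, 10.18 and 10.14 with scrambled siRNA, and 8.53, 8.69, 8.61 and 8.41 with HDAC2 siRNA. The SAHA arrays were the highest. The siRNA arrays lay below the scrambled arrays and overlapped the DMSO arrays, with a control difference of 1.28. CDKN1A rose 9.3-fold with SAHA (adjusted p = 8.67e-22) and fell 2.8-fold with the siRNA (adjusted p = 3.76e-13), an interaction of 4.70 (SE 0.14, adjusted p = 1.55e-21). A second probe, detected on 3 Huh7 arrays, gave 0.54, which did not pass (adjusted p = 0.0988). The promoter of CDKN1A is shown because its GC boxes, which bind SP1 family factors, are textbook elements of the response to deacetylase inhibitors. The 250 bases before the start of CDKN1A (chr6:36678464-36678713, plus strand, GRCh38.p14, RefSeq) held 4 copies of GGGCGG, in capitals, the last 2 of them overlapping by 1 base; the reverse strand held none.
CDKN1A: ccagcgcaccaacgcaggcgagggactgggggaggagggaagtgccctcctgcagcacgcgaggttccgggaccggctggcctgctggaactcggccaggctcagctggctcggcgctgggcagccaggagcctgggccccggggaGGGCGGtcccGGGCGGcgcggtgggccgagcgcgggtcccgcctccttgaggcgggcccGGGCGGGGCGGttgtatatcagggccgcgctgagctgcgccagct
GGGCGG on either strand was present in 42.3% of 27305 promoters of this length, in 64.7% of those of genes tested, in 73.3% of those of genes raised by SAHA and lowered by the siRNA, in 69.5% for genes raised by both, in 66.9% for genes lowered by SAHA and raised by the siRNA, in 65.7% for genes lowered by both and in 66.2% for genes called with SAHA alone.

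Other genes of this class had varied functions. HEY2, a NOTCH-induced repressor gene, had effects of 2.50 and -1.92 (interaction 4.42, SE 0.22, adjusted p = 9.61e-17). SPTSSA, a subunit of serine palmitoyltransferase, read 7.37, 7.46, 7.57 and 7.63 with DMSO, 9.93, 9.61, 9.62 and 9.73 with SAHA, 7.49, 7.80, 7.81 and 7.75 with scrambled siRNA, and 5.67, 5.89, 5.90 and 5.65 with HDAC2 siRNA. The controls of SPTSSA overlapped, all SAHA arrays lay above them and all siRNA arrays below (effects 2.21 and -1.94, interaction 4.15). CCDC28A had effects of 1.94 and -2.29, and CREB3L3, a liver transcription factor of the fasting response, 1.51 and -2.15. BATF3, a leucine zipper factor gene, was detected on no siRNA array and fell there at least 2.59-fold. TOM1L2, CCNYL1, MINPP1 and KLRC2 were the others of the 10, with SAHA effects of 1.55 to 2.76 and siRNA effects of -2.03 to -1.52; the probes of TOM1L2 disagreed in the size of the siRNA effect. Of 16 cell cycle inhibitor genes SAHA raised 11 and lowered 3, beside 31.6% and 29.1% of all genes tested. The siRNA raised 5 and lowered 4, beside 22.9% and 22.4% of all genes. GADD45A, a stress-induced growth arrest gene, was raised by SAHA and lowered by the siRNA (2.09 and -0.44), and BTG2, an antiproliferative p53 target, was lowered and raised (-0.56 and 1.23).

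Metallothioneins, small proteins that bind zinc and copper, had the highest median interaction of the 35 gene lists described. SAHA raised 7 of 9 and lowered none, beside 31.6% and 29.1% of all genes tested. The siRNA raised 1 and lowered 5, beside 22.9% and 22.4%, and the median interaction was 2.61 against 0.05 over all genes. MT2A read 10.25, 9.83, 10.22 and 10.28 with DMSO, 13.27, 13.10, 13.10 and 12.93 with SAHA, 11.42, 11.28, 11.29 and 11.11 with scrambled siRNA, and 10.36, 10.27, 10.62 and 10.40 with HDAC2 siRNA. Its SAHA arrays were the highest and its siRNA arrays overlapped its DMSO arrays at the bottom, and its effects were 2.96 and -0.86 (interaction 3.82, SE 0.18, adjusted p = 2.65e-17). MT1G, MT1X, MT1A and MT1E shared the opposite signs, with SAHA effects of 1.87 to 2.84 and siRNA effects of -1.07 to -0.48, whereas MT1F rose with both. Probes for these near-identical transcripts can bind more than 1 of them. The promoters of MT2A (chr16:56608334-56608583, plus strand) and MT1X (chr16:56682220-56682469, plus strand, both GRCh38.p14) are shown because these members moved together. Capitals mark TGCNCNC, the core of the metal response element, on either strand: 5 forward and 2 reverse in MT2A, 3 and 1 in MT1X.
MT2A: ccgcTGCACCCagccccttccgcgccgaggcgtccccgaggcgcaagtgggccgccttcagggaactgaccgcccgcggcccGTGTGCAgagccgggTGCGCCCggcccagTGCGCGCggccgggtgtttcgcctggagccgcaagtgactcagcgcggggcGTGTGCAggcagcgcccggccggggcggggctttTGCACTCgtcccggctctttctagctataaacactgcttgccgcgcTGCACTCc
MT1X: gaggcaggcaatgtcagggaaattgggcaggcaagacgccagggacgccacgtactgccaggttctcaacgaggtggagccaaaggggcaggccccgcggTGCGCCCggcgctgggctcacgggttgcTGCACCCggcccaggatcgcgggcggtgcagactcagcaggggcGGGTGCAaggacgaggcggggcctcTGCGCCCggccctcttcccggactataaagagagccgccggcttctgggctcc
The short core was present in all 4 metallothionein promoters of the reference table, in 48.4% of all promoters and in 55.6% of those of genes tested.

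The heat shock list divided. HSPA1A and HSPA1B, the near-identical HSP70 genes whose probes may not tell them apart, had SAHA effects of 1.17 and 1.30 and siRNA effects of -0.92 and -1.08. HSPB1, a small heat shock protein gene, fell with SAHA (-0.99) and had an siRNA effect of 0.38, which did not pass under median scaling (0.14, adjusted p = 0.367). Of the 12 genes tested, 6 were lowered by both, among them HSPH1 (-1.71 with SAHA and -0.58 with the siRNA). Raised by SAHA and lowered by the siRNA were 3, and 1 was the reverse. The shares of these classes over all genes tested were 9.91%, 6.13% and 7.28%.

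Genes raised by both treatments included CTSF, PPARGC1A and GRN. CTSF, the gene of the lysosomal protease cathepsin F, read 6.90, 6.79, 7.03 and 7.07 with DMSO, 9.46, 9.30, 9.18 and 9.37 with SAHA, 6.21, 6.26, 6.19 and 6.55 with scrambled siRNA, and 8.78, 8.81, 8.91 and 8.54 with HDAC2 siRNA. Both treated groups lay above both controls, and the effects were 2.38 and 2.46, with a difference of -0.08 (95% interval -0.64 to 0.49). PPARGC1A, the coactivator PGC-1alpha of mitochondrial and fasting genes, read 6.26, 5.59, 5.81 and 6.05 with DMSO, 7.73, 8.23, 7.79 and 7.98 with SAHA, 5.49, 5.08, 5.32 and 5.51 with scrambled siRNA, and 8.12, 8.00, 8.11 and 7.81 with HDAC2 siRNA. It rose 4-fold with SAHA and 6.31-fold with the siRNA, and the treated arrays of both comparisons ended at about the same level (means 7.93 and 8.01). Its interaction of -0.66 (SE 0.21, adjusted p = 0.00989) did not pass without background correction (-0.25, adjusted p = 0.101). GRN, which encodes the lysosomal glycoprotein progranulin, rose by 2.21 and 1.67; PPP1R3C, a glycogen-targeting phosphatase subunit, by 2.33 and 2.25; YPEL3, a growth-suppressing gene, by 2.09 and 1.93; and MAP1LC3A of the autophagosome by 2.38 and 1.83. TM7SF2 was also among the 10 genes with the largest smaller effect.

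Clustered histone genes rose with both treatments, and further with SAHA. Of 15 tested, 10 were raised by both and 1 was lowered by both, beside 9.36% and 9.91% of all genes tested. The median effect was 3.25 with SAHA and 0.74 with the siRNA. The interaction was higher with SAHA in 12 and lower in 1, beside 29% and 25.7% of all genes. H4C3 was the lower member (-1.28 with SAHA and 0.69 with the siRNA). H2BC21 read 6.01, 5.85, 5.60 and 5.68 with DMSO, 10.27, 10.62, 10.31 and 10.59 with SAHA, 5.60, 5.36, 5.64 and 5.68 with scrambled siRNA, and 7.79, 7.80, 7.81 and 7.86 with HDAC2 siRNA. Its controls were alike and near background, the siRNA arrays stood above them and the SAHA arrays above those (effects 4.66 and 2.24, interaction 2.42, SE 0.27, adjusted p = 7.77e-09). H2AC6 had effects of 3.27 and 1.88, while H2AC18 (4.03 and 0.76) and the linker histone gene H1-2 (3.81 and 0.51) moved mainly with SAHA. Histone probes can bind transcripts of close relatives. The promoters of H2BC21 (chr1:149886683-149886932, minus strand) and H2AC6 (chr6:26123922-26124171, plus strand, both GRCh38.p14, written 5′ to 3′ on the strand of the gene) are shown for these 2 members of the 10 largest. Capitals mark the octamer ATTTGCAT, CCAAT and TATAAA on either strand, with no overlap between them.
H2BC21: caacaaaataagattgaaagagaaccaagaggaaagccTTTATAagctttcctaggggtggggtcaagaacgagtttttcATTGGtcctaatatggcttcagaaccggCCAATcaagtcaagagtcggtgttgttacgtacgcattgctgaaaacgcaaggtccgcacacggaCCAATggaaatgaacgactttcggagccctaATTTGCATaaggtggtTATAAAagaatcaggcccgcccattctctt
H2AC6: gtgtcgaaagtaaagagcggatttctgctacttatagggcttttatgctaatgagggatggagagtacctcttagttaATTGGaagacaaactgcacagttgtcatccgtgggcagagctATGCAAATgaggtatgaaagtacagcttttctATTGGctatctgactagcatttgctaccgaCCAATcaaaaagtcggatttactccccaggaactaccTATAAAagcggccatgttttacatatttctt
Of 13 clustered histone promoters in the reference table, 53.8% held ATTTGCAT, 84.6% CCAAT and 69.2% TATAAA, against 1.66%, 33.0% and 11.1% of all 27305 promoters. Among promoters of genes tested the shares were 1.38%, 35.4% and 6.25%.

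Genes lowered by both treatments included CXCL5, SLC7A5 and TGFBI. CXCL5, a neutrophil-attracting chemokine gene, read 9.11, 9.05, 9.05 and 9.14 with DMSO, 6.15, 6.31, 6.03 and 5.95 with SAHA, 11.78, 11.87, 11.63 and 11.37 with scrambled siRNA, and 7.75, 7.67, 7.66 and 7.57 with HDAC2 siRNA. Each treated group lay well below its own control, with a control difference of 2.57. CXCL5 fell 7.89-fold with SAHA and 16-fold with the siRNA, and the siRNA effect was larger by 1.02 (SE 0.15, adjusted p = 8.23e-07). SLC7A5, the large neutral amino acid transporter LAT1, read 12.60, 12.54, 12.69 and 12.70 with DMSO, 10.67, 10.53, 10.60 and 10.49 with SAHA, 12.46, 12.98, 12.89 and 12.94 with scrambled siRNA, and 10.82, 10.80, 10.76 and 11.00 with HDAC2 siRNA. The controls overlapped each other and both treated groups lay below them, with effects of -2.06 and -1.97 and a difference of -0.09 (95% interval -0.41 to 0.24). TGFBI, a matrix protein gene, had effects of -2.75 and -2.32; OLR1, a scavenger receptor gene, -2.36 and -3.12; and CIDEC, of lipid droplets, -2.61 and -3.18. The control differences of OLR1 and CIDEC were 2.18 and 2.07. ACOX2, a peroxisomal oxidase of bile acid synthesis, was detected on no SAHA array, where it fell at least 13.5-fold, and fell 7.68-fold with the siRNA. HJV, the hepcidin coreceptor gene, was detected on no array of either treatment and fell at least 3.92-fold and 2.67-fold. NQO1, an NRF2 target that detoxifies quinones, had effects of -3.34 and -1.95; its 2 probes gave interactions of opposite sign, -1.38 and 0.54. KYNU and NPPB completed the 10.

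**Figure D3:**
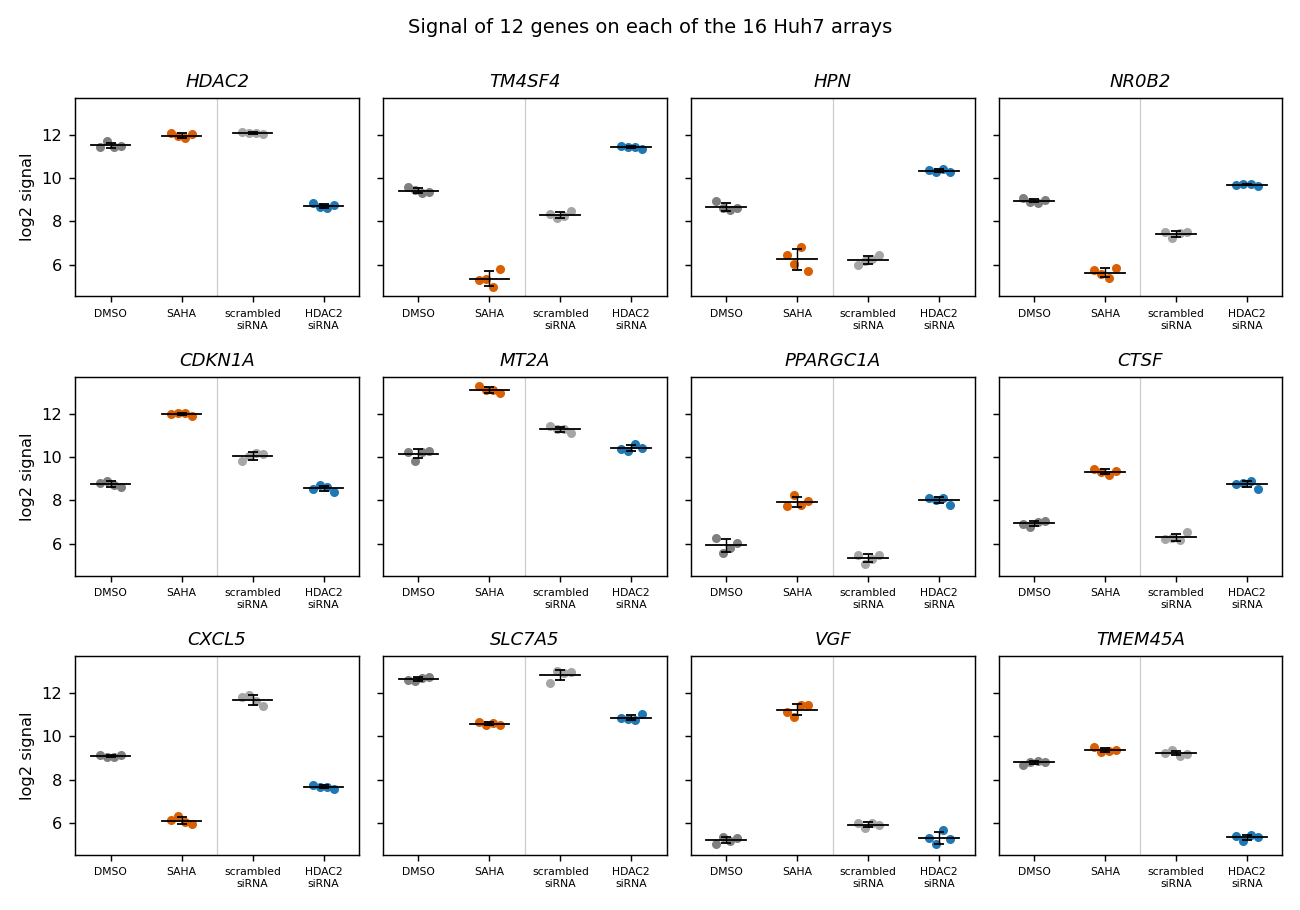
Log2 signal of 12 genes on each of the 16 Huh7 arrays, with DMSO and SAHA left and scrambled and HDAC2 siRNA right of the line; points are arrays, bars the mean and its SD (n = 4). TM4SF4, HPN and NR0B2 go down on the left and up on the right, CDKN1A and MT2A up and down, PPARGC1A and CTSF up on both sides, CXCL5 and SLC7A5 down on both, and VGF and TMEM45A change mainly on 1 side.

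Ribosome assembly genes moved largely alike. Of 19 MYC and ribosome biogenesis genes, SAHA lowered 16 and raised 2, the siRNA lowered 16 and raised 1, and both lowered 14. Of all genes tested, SAHA lowered 29.1%, the siRNA 22.4% and both 9.91%. The medians were -0.88 and -0.95, and the interaction was higher with SAHA in 5 and lower in 5, beside 29% and 25.7% of all genes. Named after their values were seen, MYC itself fell with both (-0.62 with SAHA and -1.39 with the siRNA), as did NOP16 (-1.27 with SAHA and -1.19 with the siRNA), DKC1 of the box H/ACA particle (-1.06 with SAHA and -1.23 with the siRNA) and RRP9 (-1.49 with SAHA and -1.19 with the siRNA), and the interactions of these last 3 did not pass. ODC1, the polyamine synthesis gene, and MYCN were exceptions in opposite directions: ODC1 rose with SAHA and fell with the siRNA (1.57 and -0.95), and MYCN fell and rose (-3.63 and 0.72), with a control difference of -3.99.

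Amino acid and protein-folding stress genes were more often lowered than raised by both. Of 26 genes of the integrated stress and unfolded protein responses, 12 were lowered by both and 3 raised by both. The shares over all genes tested were 9.91% and 9.36%. The interaction was higher with SAHA in 12 and lower in 7, beside 29% and 25.7% of all genes. Under median scaling it was higher in 11 and lower in 10. ASNS, asparagine synthetase, fell with the siRNA and its SAHA effect did not pass (-0.07 with SAHA and -1.30 with the siRNA, interaction 1.23, SE 0.13, adjusted p = 3.51e-09), and SDF2L1 of the endoplasmic reticulum fell further with it (-0.32 with SAHA and -1.57 with the siRNA). TRIB3 and ATF5 fell further with SAHA (-2.90 and -3.27 against -0.37 and -1.31). Of 15 serine and folate one-carbon genes 8 were lowered by both and 2 raised by both, beside the same 9.91% and 9.36%. MTHFD2, the mitochondrial folate enzyme, fell 3.31-fold with SAHA and 11.9-fold with the siRNA (interaction 1.84, SE 0.20, adjusted p = 3.26e-09). MTHFD1L, in the same pathway, had the reverse order (-2.05 with SAHA and -0.77 with the siRNA). Of 15 chemokine and cytokine genes 6 were lowered by both, beside 9.91% of all genes tested. CXCL10, an interferon-induced chemokine, read 4.97, 4.94, 5.09 and 4.97 with DMSO, 5.25, 5.24, 5.31 and 5.87 with SAHA, 8.13, 8.65, 8.32 and 8.49 with scrambled siRNA, and 5.96, 5.45, 5.68 and 5.66 with HDAC2 siRNA. It was detected on no DMSO array and on all scrambled arrays; with the siRNA it fell 6.54-fold back toward the DMSO level, and its SAHA effect of 0.42 shrank to 0.08 with the DMSO arrays raised to the lowest detected signal. IL32 fell with SAHA (-1.48) and had an siRNA effect of 0.33, which did not pass under median scaling (0.16, adjusted p = 0.409). CXCL6, detected on 1 of 4 SAHA arrays, fell with SAHA (-1.59) with an siRNA effect of 0.23 that did not pass.

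**Figure D4:**
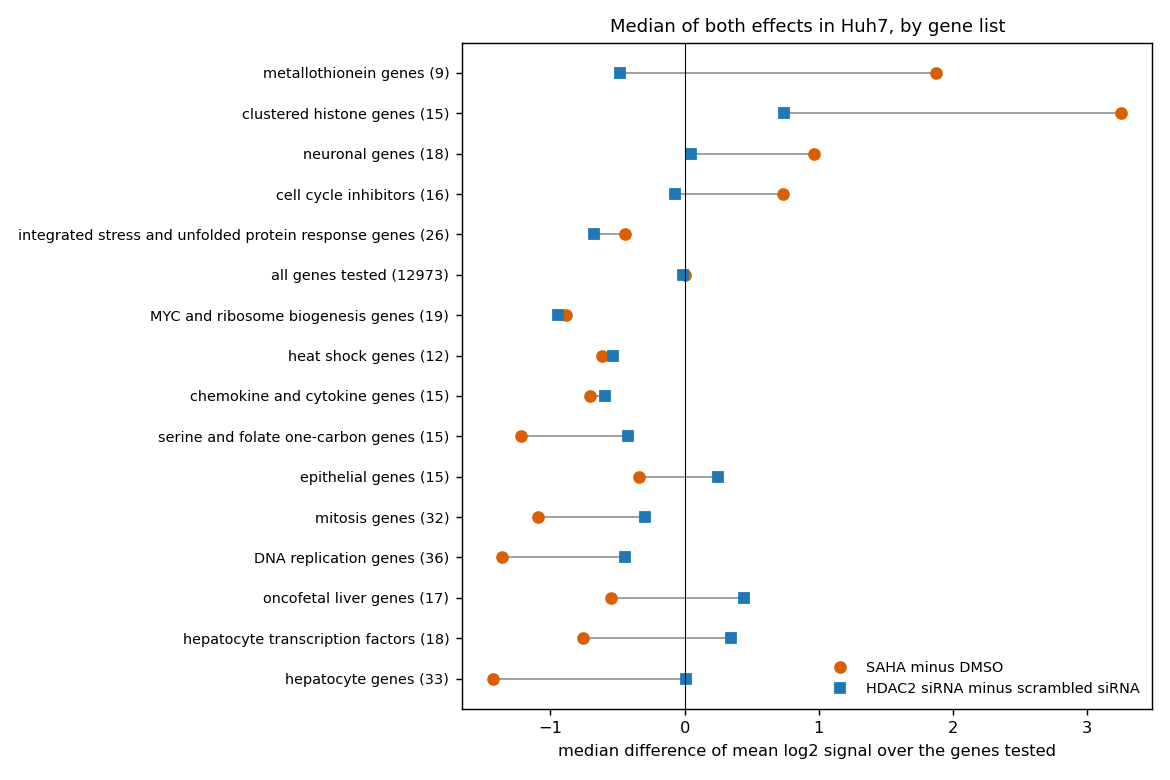
Median SAHA effect (circles) and median HDAC2 siRNA effect (squares) over the tested genes of 15 lists and over all genes, in order of the median interaction; the number of genes tested is in brackets. The hepatocyte genes show the widest gap with SAHA on the left, metallothionein and clustered histone genes the widest with SAHA on the right, and the MYC and ribosome biogenesis genes a gap near 0 at about -0.9.

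Genes with nearly equal effects of at least 1 on the log2 scale included ZFP90, a zinc finger gene, at 1.59 and 1.59 (95% interval of the difference -0.34 to 0.33), SPG11 of the lysosome at 1.08 and 1.10, and KLB, the coreceptor of FGF19 and FGF21, at 1.26 and 1.29. Among the lowered genes, C1QBP, a mitochondrial matrix protein, read 12.97, 13.11, 13.15 and 13.17 with DMSO, 12.08, 11.75, 11.77 and 11.75 with SAHA, 13.44, 13.46, 13.39 and 13.45 with scrambled siRNA, and 12.20, 12.22, 12.14 and 12.20 with HDAC2 siRNA. Both treated groups lay below both controls, with effects of -1.26 and -1.25 (95% interval of the difference -0.38 to 0.35). In all, 149 genes moved alike by at least 1 with no called interaction. The genes named in this paragraph were chosen for interaction estimates nearest 0, so intervals centred near 0 are given by the choice. They do not show that the effects were equal.

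The largest positive interactions came mostly from SAHA alone. VGF, a neuropeptide precursor gene, read 5.03, 5.36, 5.18 and 5.32 with DMSO, 11.13, 10.89, 11.44 and 11.41 with SAHA, 6.01, 5.76, 6.01 and 5.92 with scrambled siRNA, and 5.30, 5.02, 5.68 and 5.27 with HDAC2 siRNA. Only the SAHA arrays stood far from background, 63.6-fold above DMSO (interaction 6.60, SE 0.23, adjusted p = 2.97e-20), and its siRNA effect of -0.60 did not pass without background correction (adjusted p = 0.0815). DHRS2, a short-chain dehydrogenase gene, was by its brightest probe detected on no array of the other 3 groups and rose at least 40-fold with SAHA. A second probe of DHRS2, detected on 7 Huh7 arrays, gave a SAHA effect of 4.85. TMEFF2, TMEM59L and DNER, genes known for expression in brain, had SAHA effects of 5.82, 5.87 and 4.88 and siRNA effects of -0.09 to 0.18 that did not pass, with scrambled and HDAC2 siRNA arrays all at background. SLC2A3, the neuronal glucose transporter GLUT3, and HK1, a hexokinase gene low in hepatocytes, rose 25.3-fold and 29.9-fold with SAHA, with siRNA effects of -0.12 (not passing) and -0.49. ELOVL4 and LMTK3 rose by 5.24 and 5.02 with SAHA and by 0.73 and 0.50 with the siRNA, the last of which did not pass without background correction. Of 18 neuronal genes SAHA raised 12 and lowered 1, beside 31.6% and 29.1% of all genes tested. The siRNA raised 4 and lowered 1, beside 22.9% and 22.4%. SYP, of the synaptic vesicle, and MAPT, the tau gene, had SAHA effects of 3.59 and 2.53 and siRNA effects of 0.08 each.

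The proliferation lists moved further with SAHA. Of 36 DNA replication genes SAHA lowered 31 and the siRNA 22, and both lowered 22, beside 29.1%, 22.4% and 9.91% of all genes tested. The medians were -1.36 and -0.44. The interaction was lower with SAHA in 26 and higher in 2, beside 25.7% and 29% of all genes. TYMS, thymidylate synthase, had effects of -3.53 and -0.80, and MCM5 of the replicative helicase -3.17 and -0.49. MCM6 fell with SAHA (-2.25) with an siRNA effect of -0.08 that did not pass. Of 32 mitosis genes SAHA lowered 27 and the siRNA 15, with 13 lowered by both, beside the same 29.1%, 22.4% and 9.91%. PRC1, which bundles spindle microtubules, and KIF20A, a cytokinesis kinesin gene, were lowered by SAHA (-1.03 and -1.94) and raised by the siRNA (1.16 and 0.53). The HDAC2 siRNA arrays of PRC1 (11.52 to 11.69) overlapped DMSO (11.56 to 11.69), and those of KIF20A (10.64 to 10.73) stayed below it (10.87 to 10.96).

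Other interactions came mainly from the siRNA. TMEM45A, a transmembrane protein gene, was the one such gene among the 12 highest: it read 8.66, 8.83, 8.85 and 8.81 with DMSO, 9.50, 9.29, 9.30 and 9.38 with SAHA, 9.21, 9.36, 9.10 and 9.19 with scrambled siRNA, and 5.42, 5.15, 5.43 and 5.34 with HDAC2 siRNA. Its siRNA arrays alone lay near background, 14.7-fold below scrambled, and its SAHA effect of 0.58 did not pass under median scaling (0.23, adjusted p = 0.12). PIK3IP1, an inhibitor of phosphoinositide 3-kinase, rose 8.85-fold with the siRNA and had a SAHA effect of 0.36 (interaction -2.78, SE 0.21, adjusted p = 1.04e-12); the SAHA effect did not pass under median scaling or without background correction. FOXO3, the forkhead factor of the insulin pathway, read 10.43, 10.23, 10.22 and 10.24 with DMSO, 10.33, 10.51, 10.41 and 10.52 with SAHA, 8.55, 8.60, 8.69 and 8.62 with scrambled siRNA, and 10.51, 10.61, 10.48 and 10.57 with HDAC2 siRNA. Only the scrambled arrays stood apart, at a control difference of -1.67, and the siRNA effect was 1.93. IGFBP3, an insulin-like growth factor binding protein gene, fell with the siRNA (-1.95), with a SAHA effect of 0.38 that did not pass. Its SAHA arrays (12.14 to 12.31) nonetheless lay above its DMSO arrays (11.69 to 11.93), and its second probe gave a SAHA effect of 0.30.

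The same contrast in HepG2 was called in 6321 genes (48.7%). Of the genes called in both lines, 3044 had the same direction and 971 the opposite, and across genes the interactions correlated at 0.345. The difference between the lines was called in 6060 genes (46.7%), and in 28 of the 35 HDAC genes and extremes compared. TM4SF4, HABP2 and ANXA13 were detected on no more than 1 HepG2 array, and DHRS2, whose Huh7 interaction was 6.03, was bright on every HepG2 array, with an interaction of -0.99. HPN was detected on all HepG2 arrays with an interaction of -0.03, a difference between lines of -6.51. CDKN1A in HepG2 had mean log2 signals of 11.39 with DMSO, 13.07 with SAHA, 12.20 with scrambled siRNA and 13.53 with HDAC2 siRNA, and its interaction of 0.34 did not pass, so the lines differed by 4.36 (limma adjusted p = 1.07e-16). VGF and NR0B2 kept their direction (5.75 and -1.47). HDAC1 had the opposite sign, -1.09 in HepG2 against 0.78 in Huh7.

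**Figure D5:**
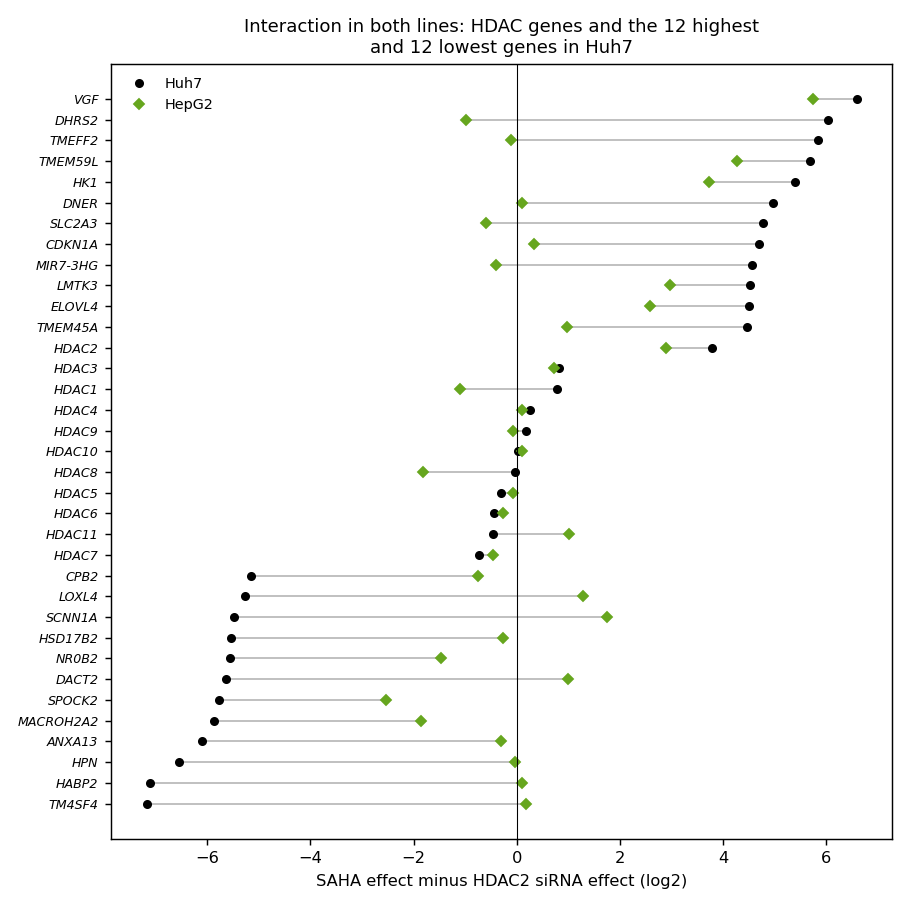
Interaction (SAHA effect minus HDAC2 siRNA effect, log2) in Huh7 (circles) and HepG2 (diamonds) for the HDAC genes and the 12 highest and 12 lowest genes of Huh7, which were chosen on the Huh7 value. VGF and TMEM59L are high in both lines, whereas TM4SF4, HPN and CDKN1A lie near 0 in HepG2.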

How the data were processed

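The measurements are Illumina bead array signals of 32 RNA samples. The authors deposited raw probe intensities with, per the file headers, a detection p-value beside each, and a second table of normalized intensities on a linear scale. Per the submitters' processing notes GenomeStudio 2011.1 was used; its settings are not stated there.

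In R 4.3.3 with limma 3.58.1, raw intensities were background-corrected through the detection p-values (normexp, offset 16), quantile-normalized over the 32 arrays and expressed as log2 signal. Probes with detection p under 0.05 on 4 or more arrays entered (16121 of 24526). Symbols were brought up to date from the reference gene list (855 probes stayed unmatched), and a gene was tested by its brightest probe. One model of 8 group means gave the effects and the interaction contrasts, with two-sided tests and Benjamini-Hochberg adjustment over 12973 genes. Calls use an adjusted p under 0.05. Where a probe was detected on no array of a group, signals there were raised to the lowest detected signal of the array (5.22 to 5.43 in Huh7) for "at least" folds.

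Named genes are the HDAC genes, the 12 highest and 12 lowest interactions, the 10 genes of each class with the largest smaller effect, the 8 per direction called in both with the interaction nearest 0, and up to 4 members of each of 35 gene lists by interaction p; some are not reported here but enter the counts, and other list members were picked after their values were seen. The members and lists were chosen with earlier results of these data known. Promoters are the 250 bases before each gene's start in the RefSeq table. On simulated data for the interaction over 12973 genes with 200 changed, 68% of changes of 1 on the log2 scale and 13% of changes of 0.5 were recovered. In the data 7105 interactions were called. The adjusted threshold depends on the share of changed genes, so these recoveries do not give the sensitivity of the real comparison. The labels name no batch, and no slide or scan field is in the files used, so no batch term was fitted.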

Additional observations from a re-analysis of the deposited data

Results flagged for a closer look

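Dixon's test at the 95% level was run on 278 groups of 4 Huh7 arrays, which did not cover all named genes. DMSO array 1 of FOXO3 (10.43, the other 3 at 10.22 to 10.24) is not listed here. Neither is DMSO array 2 of MT2A (9.83, the other 3 at 10.22 to 10.28). The list is thus not complete for all named genes. Single arrays lay apart from the other 3 of their group in 9 of the 278 groups, where chance flags about 1 in 20. In log2 signal, these were HDAC5 on HDAC2 siRNA array 3 (6.16), ACOX2 on scrambled siRNA array 2 (9.51), KYNU on DMSO array 2 (8.00), ANXA13 on scrambled siRNA array 4 (8.77), NR0B2 on scrambled siRNA array 2 (7.23), B4GALNT1 on scrambled siRNA array 1 (7.81), C1QBP on SAHA array 1 (12.08), TM7SF2 on DMSO array 1 (8.78) and CCNYL1 on DMSO array 1 (7.90). No called interaction among these genes changed direction when 1 array was left out.

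The interaction differed between the lines, by the limma contrast of Huh7 minus HepG2 (adjusted p under 0.05), in 28 of 35 genes compared, beside 46.7% of all genes; the 12 highest and 12 lowest were chosen on the Huh7 value, so their difference in that direction is partly given by the choice. The Huh7 interaction was the higher, in log2 units, for HDAC2 0.91, HDAC1 1.87, HDAC8 1.78, VGF 0.85, DHRS2 7.02, TMEFF2 5.97, TMEM59L 1.42, HK1 1.67, DNER 4.87, SLC2A3 5.36, CDKN1A 4.36, MIR7-3HG 4.97, LMTK3 1.56, ELOVL4 1.92 and TMEM45A 3.49. It was the lower for HDAC11 -1.47, TM4SF4 -7.35, HABP2 -7.21, HPN -6.51, ANXA13 -5.79, MACROH2A2 -4.02, SPOCK2 -3.24, DACT2 -6.64, NR0B2 -4.09, HSD17B2 -5.27, SCNN1A -7.23, LOXL4 -6.55 and CPB2 -4.39. In TMEFF2, DNER, MIR7-3HG, TM4SF4, HABP2 and ANXA13 the HepG2 signal was at or near background in every group, so for them the difference rests on Huh7. In HepG2, TMEM45A was detected on 1 scrambled and 0 HDAC2 siRNA arrays, and DACT2 on 0 DMSO and 1 SAHA arrays. A fall from those controls had little room to show.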

How the results depend on the processing

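The counts moved furthest under median scaling of the arrays, where 481 genes in place of 795 were raised by SAHA and lowered by the siRNA, 837 in place of 1214 were raised by both, and 2777 in place of 3767 interactions were higher, against 3902 lower. There the share of called interactions that were higher was 41.6% against 53%; the medians of all SAHA effects, siRNA effects and interactions moved to -0.128, -0.0662 and -0.0583, so changes there are relative to that shift. Called effects were up in 39.1% against 52% for SAHA and in 47.4% against 50.6% for the siRNA. Counts within the lists moved as well, such as the cholesterol genes with a higher interaction, from 9 to 6. The cause of these shifts was not tested. Leaving out each array in turn gave 3601 to 3793 higher and 3219 to 3313 lower interactions, 1124 to 1207 genes raised by both, 1195 to 1269 lowered by both, 720 to 794 and 874 to 934 in the opposite classes, 1205 to 1318 alike without a called difference, and a correlation of 0.11 to 0.12. The deviations of same-numbered arrays correlated at -0.0996 to 0.261 between DMSO and SAHA and at -0.0284 to 0.138 between the siRNA groups. With 4 arrays a group these low values do not show pairing by number and cannot exclude it. With the replicate block there were 3717 higher and 3278 lower interactions and 1192, 1247, 766 and 922 genes in the 4 classes. Of the single genes 2 reversed: KYNU gave 0.91 without background correction, and PAIP2 0.58 with the mean of its probes. List medians of the interaction that changed sign included those of mesenchymal genes (-0.03, only genes detected on all 16 arrays), leukocyte markers (-0.00 with one median, -0.76 with 16 Huh7 arrays alone, -0.06 with the authors' values and -0.03 without a detection filter) and fibroblast and endothelial markers (0.00 with the authors' values), and medians nearer 0, such as those of fatty acid oxidation genes (-0.16 with one median), pro-apoptotic genes (0.11 with one median), MYC and ribosome biogenesis genes (0.03 without background correction) and interferon response genes (0.02 with 16 Huh7 arrays alone). The 40 genes named by class kept their class in every alternative that tested them; 29 were tested with detection on all 16 arrays. The interactions of GRN, MAP1LC3A and TM7SF2 did not pass with one median, nor did that of ACOX2 without background correction. Genes near background have values that rest on the offset, and 367 genes tested were detected on no Huh7 array. A slide or scan block was not run, since the files hold no such field.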

Other observations

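Single genes of the lipid lists moved oppositely. The fatty acid desaturase genes FADS1 and FADS2 fell with SAHA (-0.92 and -1.41) and rose with the siRNA (1.56 and 1.02). Their HDAC2 siRNA arrays stayed below DMSO (9.63 to 9.73 against 10.86 to 11.11, and 7.27 to 7.87 against 9.13 to 9.61). LPIN1, a phosphatidate phosphatase gene, rose with SAHA and fell with the siRNA (0.76 and -1.32). PPARG, the adipogenic nuclear receptor, fell with both and further with the siRNA (-1.17 with SAHA and -2.42 with the siRNA). IDI1 of cholesterol synthesis was raised by SAHA and lowered by the siRNA (1.47 and -0.97). Of 17 fatty acid oxidation genes the interaction was higher with SAHA in 6 and lower in 5, of 17 synthesis genes in 7 and 5, and of 18 cholesterol genes in 9 and 4, beside 29% and 25.7% of all genes tested.

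Of 20 MAP kinase feedback and early response genes 1 was raised by SAHA and lowered by the siRNA and 5 were the reverse. Both raised 3 and lowered 3. In the same order, these classes held 6.13%, 7.28%, 9.36% and 9.91% of all genes tested. JUNB and SPRY2, an early response factor and a feedback inhibitor of receptor kinases, fell with SAHA (-1.11 and -0.98) and rose with the siRNA (1.79 and 0.98), and FOS rose with SAHA and fell with the siRNA (3.32 and -0.64). From other lists, CCND1, cyclin D1, had effects of -2.43 and 0.85, and its HDAC2 siRNA arrays (12.80 to 12.89) overlapped DMSO (12.80 to 13.04). CCN1, a matricellular gene, had 2.25 and -1.12. Among death genes, CFLAR, an inhibitor of caspase 8, and BCL2L1 fell with SAHA (-2.19 and -0.74) and rose with the siRNA (0.48 and 0.71). The HDAC2 siRNA arrays of CFLAR (8.62 to 8.90) lay above DMSO (8.25 to 8.53), and those of BCL2L1 (13.80 to 13.84) within its range (13.56 to 13.88). The death receptor gene TNFRSF10B rose with SAHA and fell with the siRNA (1.10 and -0.36). The reference gene HPRT1 also moved oppositely (1.32 and -0.88).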
